A study of Mus musculus with 8 samples.

Results

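Levels of 8 genes of the S100 family (S100a1, S100a4, S100a6, S100a10, S100a11, S100a13, S100a16 and S100b) were compared between cells of mouse medulloblastomas that had been sorted by a reporter of the stem cell factor Sox2. They were taken by name from the 22180 genes with a probe set of their own on the arrays. Their probe sets were chosen by 1 measured value, the mean over all 8 arrays. Each of the 8 genes had 1 probe set, so that value decided nothing here. The genes were put together with results of these arrays known, so their count of calls is a description and not independent evidence.

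The tumours came from Patched1+/- mice on a CD1 background crossed with B6 mice that carry a Sox2eGFP reporter. To induce tumours, all mice were irradiated with 3 Gy as newborns, and tumours were dissected at an age over 70 days, when signs of disease appeared. Cells with CD45 or Ter119, which mark white and red blood cells, were depleted from both fractions, and the rest were sorted into Sox2-eGFP+ and Sox2-eGFP- cells, called Sox2-positive and Sox2-negative here. Each fraction had 4 arrays, and each array held the RNA of 1 pool of 3 tumours. The sort read eGFP and not Sox2 itself, and both fractions come from irradiated Patched1+/- tumours. No sample of normal cerebellum was analysed here, and whether the dissected tumours held normal glia was not tested. Values are log2 expression. In a sorted pool, fewer cells that express a gene and less RNA of it per cell cannot be told apart.

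S100 proteins are small calcium-binding proteins with a pair of EF hands, the helix-loop-helix fold that holds a calcium ion. Most work as dimers that open a binding face when calcium rises and then attach to target proteins such as annexins, cytoskeletal proteins and kinases. In the brain S100b is a widely used marker of astrocytes, and it is also made by cells of the oligodendrocyte lineage. Most S100a genes lie side by side in 1 cluster of the genome, while S100b lies apart.

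Of the 8 genes, 6 were higher in Sox2-positive cells and 0 were lower at a limma adjusted p under 0.05. Over all 22180 genes 8.47% were called, 5.96% higher and 2.52% lower. The differences were very unequal. S100a1 was 9.10-fold higher and S100b 2.35-fold higher, while S100a10, S100a16, S100a13 and S100a6 were between 1.38-fold and 1.74-fold higher. S100a4 and S100a11 did not pass the test. The median of the 8 log2 differences was 0.59, and that of all genes was -0.03. An increase of at least 2-fold was found for 2 of the 8 genes, against 1.61% of all genes. In 5 of the 8 genes every Sox2-positive array lay above every Sox2-negative one, which held for 7.63% of all genes.

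**Figure D1:**
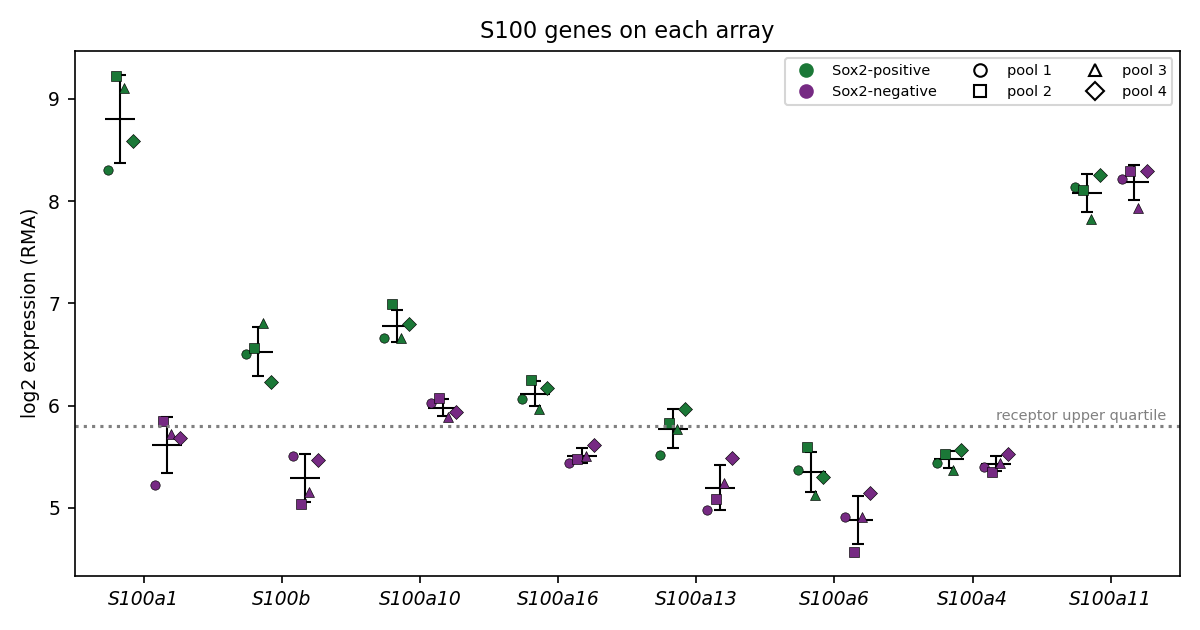
Log2 expression of the 8 S100 genes on each of the 8 arrays, ordered by their difference between the fractions, with green for Sox2-positive and purple for Sox2-negative cells, symbols for the pool number, and the mean ± SD of 4 arrays in black. The dotted line is the upper quartile of olfactory and vomeronasal receptor genes (5.80), and levels of different genes are not comparable on this axis. The groups of S100a1 lie furthest apart (8.30 to 9.22 against 5.22 to 5.85), and those of S100a4 and S100a11 overlap.

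S100a1 encodes an S100 protein best known from heart and skeletal muscle, where it acts on calcium release and reuptake, and it is also made in the nervous system. Its values were 8.30, 9.22, 9.10 and 8.59 in Sox2-positive pools 1 to 4. They were 5.22, 5.85, 5.72 and 5.68 in Sox2-negative pools 1 to 4. The groups were far apart, and pool 1 had the lowest value within each fraction. The means were 8.80 ± 0.43 and 5.62 ± 0.27 (SD, n = 4 each), a log2 difference of 3.19 (SE 0.19, limma adjusted p = 1.53e-07). By signed log2 difference S100a1 stood at place 17 of the 22180 genes.

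S100b, the astrocyte marker, was at 6.51, 6.56, 6.81 and 6.23 in Sox2-positive pools 1 to 4 and at 5.51, 5.04, 5.15 and 5.47 in Sox2-negative pools 1 to 4. The groups did not overlap, and the order of the pools differed from that of S100a1: pool 3 was highest and pool 4 lowest among the Sox2-positive arrays. The means were 6.53 ± 0.24 and 5.29 ± 0.23 (SD, n = 4 each), a log2 difference of 1.24 (SE 0.14, limma adjusted p = 4.62e-05). S100b stood at place 257.

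S100a10 encodes the S100 protein that has lost calcium binding and is held in a complex with annexin A2 at the cell membrane. It was at 6.66, 6.99, 6.66 and 6.79 in Sox2-positive pools 1 to 4 and at 6.03, 6.07, 5.89 and 5.93 in Sox2-negative pools 1 to 4. All Sox2-positive arrays lay above all Sox2-negative ones. The means were 6.78 ± 0.16 and 5.98 ± 0.08 (SD, n = 4 each), a fold of 1.74 (log2 difference 0.80, SE 0.10, limma adjusted p = 0.000116). Anxa2, the gene of its partner, had means of 5.45 in the Sox2-positive and 5.20 in the Sox2-negative fraction, and its difference of 0.25 did not pass (limma adjusted p = 0.29). Both means of Anxa2 lay under the upper quartile of the receptor genes.

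S100a11, whose protein binds annexin A1, was not among the genes that rose. It was at 8.13, 8.11, 7.82 and 8.25 in Sox2-positive pools 1 to 4 and at 8.21, 8.29, 7.94 and 8.29 in Sox2-negative pools 1 to 4. The groups overlapped throughout, and pool 3 was lowest in both fractions. The log2 difference was -0.10 (95% interval -0.35 to 0.14, limma adjusted p = 0.68). A processed copy, S100a11-ps, had its own probe set, which differed by 0.19 (limma adjusted p = 0.324). How far the probes of the gene and of its copy detect each other was not tested.

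S100a6, also called calcyclin, is made in many dividing cells and in fibroblasts. It was at 5.37, 5.60, 5.12 and 5.30 in Sox2-positive pools 1 to 4 and at 4.91, 4.57, 4.91 and 5.15 in Sox2-negative pools 1 to 4. Sox2-negative pool 4 lay just above Sox2-positive pool 3, so the groups overlapped there. The gene was 1.38-fold higher (log2 difference 0.47, SE 0.13, limma adjusted p = 0.0404), and the Sox2-positive array was the higher one in 4 of 4 pairs of equal pool number. This was the least firm call of the 6. It was lost on leaving out pool 1, 2 or 4 of the Sox2-positive arrays, or pool 1, 2 or 3 of the Sox2-negative ones (adjusted p = 0.0683 to 0.135).

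S100a4, known from fibroblasts, immune cells and metastatic tumour cells, binds nonmuscle myosin. Its arrays ran from 5.37 to 5.56 in Sox2-positive and from 5.35 to 5.52 in Sox2-negative cells. The ranges nearly coincided, with a log2 difference of 0.04 (95% interval -0.14 to 0.23, limma adjusted p = 0.839).

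S100a13 encodes a protein that takes part in the release of Fgf1, a growth factor without a signal peptide. It was at 5.51, 5.83, 5.77 and 5.97 in Sox2-positive pools 1 to 4 and at 4.98, 5.08, 5.24 and 5.49 in Sox2-negative pools 1 to 4. The groups were separated by a narrow gap, and pool 1 was lowest and pool 4 highest in both fractions. The gene was 1.49-fold higher (log2 difference 0.57, SE 0.12, limma adjusted p = 0.0102).

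S100a16 is a broadly expressed member of the family. It was at 6.07, 6.25, 5.97 and 6.17 in Sox2-positive pools 1 to 4 and at 5.44, 5.48, 5.51 and 5.61 in Sox2-negative pools 1 to 4. The groups did not overlap and each was tight. The gene was 1.52-fold higher (log2 difference 0.61, SE 0.09, limma adjusted p = 0.00064).

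The arrays give no detection calls, so dim values were judged against 1390 genes of olfactory and vomeronasal receptors, which tumour cells of the cerebellum are not known to make (median 4.95, upper quartile 5.80). The Sox2-negative mean lay under 5.80 in 6 of the 8 genes, those other than S100a10 and S100a11. In 3 of them, S100a4, S100a6 and S100a13, the Sox2-positive mean lay there too. A fold against a level that is at background can understate the difference. This may bear on S100a1, S100b and S100a16, but their Sox2-negative means (5.62, 5.29 and 5.51) lay over the receptor median. Whether they were at background was not tested, and the upper quartile lay close to the array medians (5.83 to 5.88). For S100a4, S100a6 and S100a13, with both means in that range, the folds and the lack of a call for S100a4 are the least sure.

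Whether the S100 genes differed from each other in their response was tested for all 28 pairs. On each array the log2 value of one gene was subtracted from that of the other, and the result was compared between the fractions by a two-sided exact permutation test over the 8 arrays, adjusted over the 28 pairs. The smallest p that 4 arrays against 4 allow is 0.0286, and it gave an adjusted p of 0.0444 here. That value was reached in 18 of 28 pairs. The test takes no account of the pool numbers, and with them as a block, where the smallest possible p is 0.125, 0 of 28 pairs passed. S100a1 exceeded each of the other 7 genes, by 1.95 over S100b (95% interval 1.22 to 2.68) up to 3.29 over S100a11. S100b, S100a10, S100a16, S100a13 and S100a6 each exceeded S100a11. They also exceeded S100a4. But S100a4, S100a13 and S100a6 lay under the receptor quartile in both fractions, so margins that involve these genes, here and below, are less sure.

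Among the middle genes the order was not settled. S100b exceeded S100a6 (0.77 on the log2 scale), but its margin over S100a10 was 0.44 (95% interval -0.06 to 0.94, exact p = 0.114, adjusted p = 0.139). The margins of S100a10 over S100a16, of S100a16 over S100a13 and of S100a13 over S100a6 were 0.19, 0.03 and 0.11, with adjusted exact p-values of 0.0762, 0.771 and 0.563. The interval for S100a16 against S100a13 ran from -0.25 to 0.31. S100a4 and S100a11, the genes that did not pass, differed by 0.15 (95% interval -0.12 to 0.42, adjusted exact p = 0.267).

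**Figure D2:**
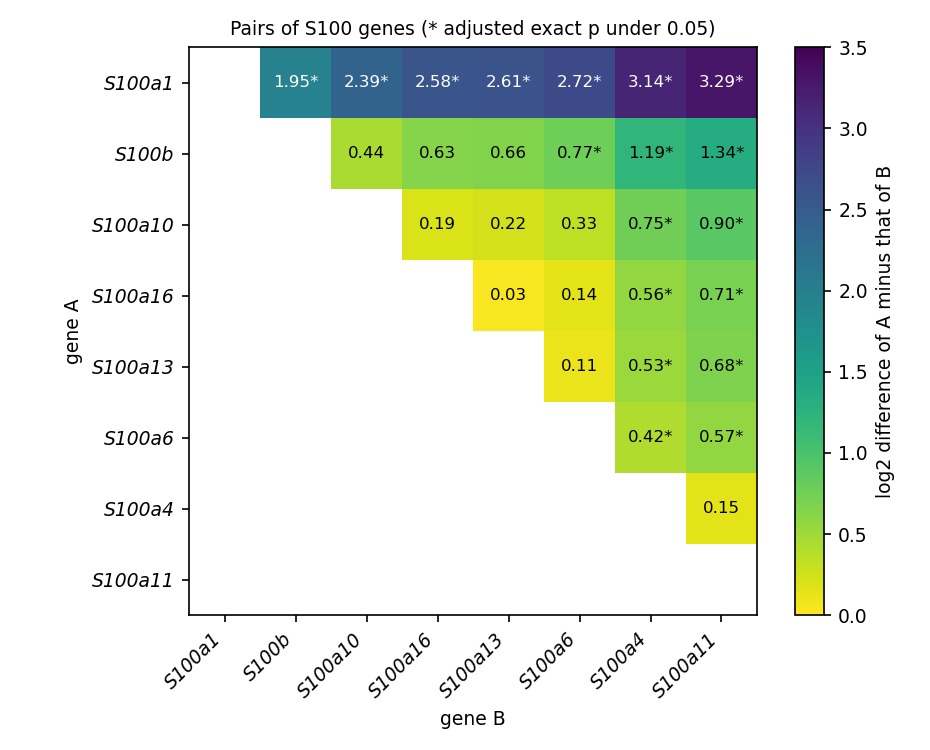
Difference between the log2 differences (Sox2-positive minus Sox2-negative) of gene A, in rows, and gene B, in columns, for the 28 pairs of S100 genes; darker cells are larger and an asterisk marks an adjusted exact permutation p under 0.05 without the pool number as a block (with it, 0 pairs could pass). The row of S100a1 (1.95 to 3.29) and the columns of S100a4 and S100a11 hold most of the marked cells.

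Of the 8 genes, 7 lie on chromosome 3 and S100b on chromosome 10, by the RefSeq gene table of GRCm38.p6. In the cluster the order of the measured genes is S100a1, S100a13, S100a14, S100a16, S100a3, S100a2, S100a4, S100a5, S100a6, S100a7a, S100a8, S100a9 and, past a pair of other genes, S100a7l2, and S100a11 and S100a10 follow further on. Genes that rose stood next to genes that did not pass. S100a14, between S100a13 and S100a16, differed by 0.07 on the log2 scale (limma adjusted p = 0.752). S100a5, beside S100a6, was at -0.25 (limma adjusted p = 0.214). But S100a14 and S100a5 were dim, with every group mean below 5.80, the receptor quartile. In Sox2-positive and Sox2-negative cells the means were 5.07 and 5.01 for S100a14, and 3.79 and 4.04 for S100a5. Whether a difference could be seen at such levels was not tested, and the lack of a call for these genes is less sure. S100a11 and S100a10 are next to each other among the genes measured, at -0.10 and 0.80.

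Other genes around the S100 genes were also read, at the 3 places on each side of the cluster and of S100a10, S100a11 and S100b. S100 genes in these places were set aside, which left 17 genes. Of these 17 genes 1 passed the test, near the share of 8.47% called over all genes. Snapin, which encodes a protein of the vesicle fusion machinery and lies on the S100a1 side of the cluster, was 1.34-fold higher (limma adjusted p = 0.0171). It no longer passed on leaving out pool 2 or 3 of the Sox2-positive arrays, or pool 1 of the Sox2-negative ones (0.0552 to 0.06). The log2 differences of all 17 ran from -0.33 to 0.43.

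**Figure D3:**
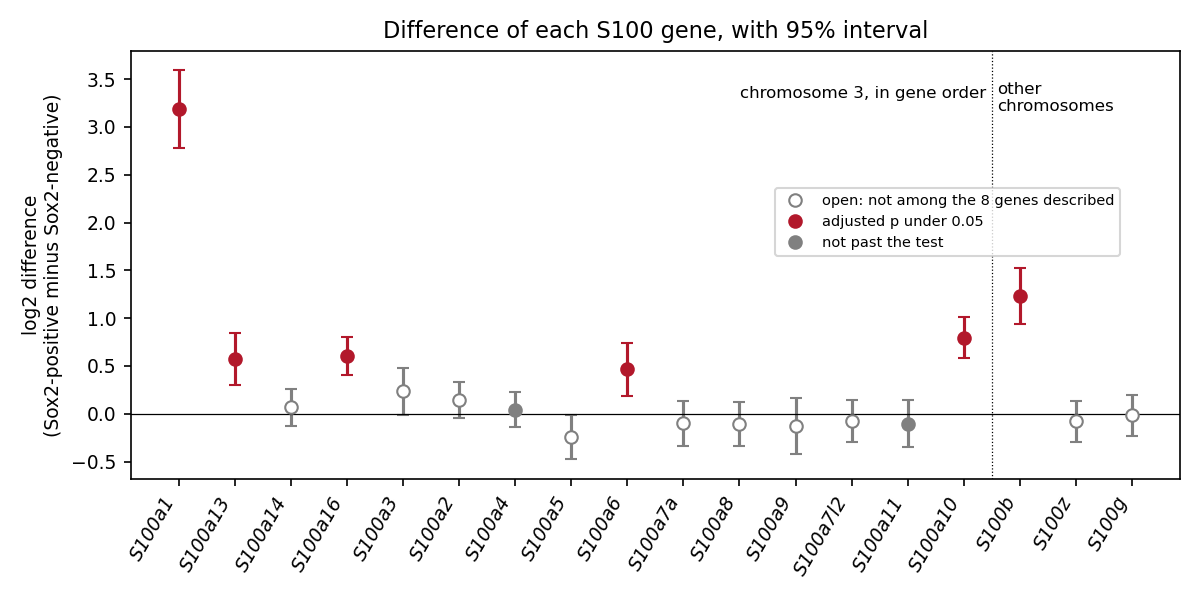
Log2 difference between Sox2-positive and Sox2-negative cells, with its 95% interval from limma, for the 18 S100 genes measured, in gene order on chromosome 3 and then for S100b, S100z and S100g; filled points are the 8 genes described and red marks an adjusted p under 0.05. S100a1 (3.19) stands at one end of the cluster, and the genes from S100a7a to S100a9 lie near 0.

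S100a1 and S100a13 are read in opposite directions from neighbouring starts, and their RefSeq gene models overlap by 98 bases. They differed by 2.61 in their log2 differences (95% interval 2.04 to 3.18, adjusted exact p = 0.0444). This margin is less sure, as both means of S100a13 lay under the upper quartile of the receptor genes. Only 104 bases lie between the starts listed in the promoter table. The overlap means that a model of S100a1 or of S100a13 begins before its listed start and reaches into this stretch. Which gene model does so was not examined, and the stretch is thus not purely intergenic. It is shown as the sequence between the starts of the gene with the largest increase and of one with a small increase. It is at chr3:90514331-90514434 in GRCm38.p6, written on the plus strand, the strand of S100a13.
Between the starts of S100a1 and S100a13: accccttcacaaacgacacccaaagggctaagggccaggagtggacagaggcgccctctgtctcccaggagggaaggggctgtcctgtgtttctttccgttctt

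The 250 bases before each listed start were searched on both strands for CATTGT and CTTTGT, core letters that SOX factors bind, for the TATA box letters TATAAA and for CCAAT. RefSeq promoter sequences of GRCm38.p6 were held for 7 of the 8 genes, in 8 windows, as S100a16 has a pair of starts. S100a10 was the gene without one. A SOX-type core was found for 1 of the 7 genes, in the window of the second start of S100a16, 97 bases before it. Among all 32851 listed windows, 25.2% hold CATTGT or CTTTGT. S100b holds the CCAAT letters at 202 bases before its start and their reverse complement at 20 bases before it, and S100a6 holds the reverse complement at 228 bases. CCAAT is found in 33.8% of all windows. S100a4, which did not pass the test, was the gene with TATAAA, 31 bases before its start, and 12.4% of all windows hold those letters. These matches describe the letters in these windows, and binding was not measured.

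The windows of S100b, S100a16 and S100a4 are printed as examples of the CCAAT, SOX-type and TATA box letters, with the matched letters in capitals. All are on the plus strand, at chr10:76253586-76253835 for S100b, chr3:90540896-90541145 for the second start of S100a16 and chr3:90603520-90603769 for S100a4.
S100b: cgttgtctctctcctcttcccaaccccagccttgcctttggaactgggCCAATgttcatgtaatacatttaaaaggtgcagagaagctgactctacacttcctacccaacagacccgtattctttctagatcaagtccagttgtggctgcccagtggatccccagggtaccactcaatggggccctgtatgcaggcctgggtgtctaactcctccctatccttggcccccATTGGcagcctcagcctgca
S100a16: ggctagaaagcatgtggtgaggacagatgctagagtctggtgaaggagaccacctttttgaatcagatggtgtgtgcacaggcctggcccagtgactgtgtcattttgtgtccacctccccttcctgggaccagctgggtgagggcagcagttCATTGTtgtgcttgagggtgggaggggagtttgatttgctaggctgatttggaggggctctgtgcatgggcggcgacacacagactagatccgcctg
S100a4: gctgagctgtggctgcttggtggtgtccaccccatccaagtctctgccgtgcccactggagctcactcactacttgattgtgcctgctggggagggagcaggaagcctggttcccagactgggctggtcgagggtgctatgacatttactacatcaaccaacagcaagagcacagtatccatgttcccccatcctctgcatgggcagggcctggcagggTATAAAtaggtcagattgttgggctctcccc
The S100a1 window held 8 CG pairs, that of S100a13 13 and that of S100a11 11, and the windows of S100b and S100a4 held 2 each. The median over all windows was 6. Genes with many and with few CG pairs thus stood on both sides of the test.

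The arrays measured 10 further S100 genes (S100a2, S100a3, S100a5, S100a7a, S100a7l2, S100a8, S100a9, S100a14, S100g and S100z). In the limma test 0 of the 10 were called, beside 8.47% of all genes, which is near 0 of 10, and 1, S100a5, had an unadjusted p under 0.05. Their log2 differences ran from -0.25 for S100a5 to 0.23 for S100a3, and in 8 of the 10 both group means lay under the upper quartile of the receptor genes. S100a8 and S100a9, which together form calprotectin of neutrophils, had log2 differences of -0.10 and -0.13 (limma adjusted p = 0.659 and 0.677).

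Of 18 measured genes of proteins that bind S100 proteins or act as their receptors, 3 were higher and 0 lower, where 5.96% of all genes were higher and 2.52% lower. The median log2 difference of the 18 was 0.15. Anxa5, an annexin that binds phosphatidylserine, was 2.26-fold higher, at 7.61 ± 0.49 against 6.43 ± 0.26 (SD, n = 4 each; limma adjusted p = 0.00188). Plat, the tissue plasminogen activator, was 1.67-fold higher (limma adjusted p = 0.00508). Anxa6 was 1.69-fold higher (limma adjusted p = 0.041), but its adjusted p rose over the threshold in 9 of 15 alternatives (0.0505 to 0.128), including the loss of any 1 array other than pool 1 of the Sox2-positive or pool 3 of the Sox2-negative ones. Ager, the receptor that binds several S100 proteins outside the cell, differed by 0.06 on the log2 scale (limma adjusted p = 0.834). Fgf1, the cargo linked to S100a13, differed by 0.13 (limma adjusted p = 0.427). Of 11 annexins Anxa5 and Anxa6 were higher and 0 were lower, with a median of 0.04, and Anxa1, the partner of S100a11, was at -0.01 (limma adjusted p = 0.959). In 7 of the 11 annexins, Anxa1 among them, both group means lay under the upper quartile of the receptor genes. Their lack of a call is less sure.

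Other EF-hand genes moved in both directions. Of 38 measured, 9 were higher and 3 lower, beside 5.96% and 2.52% of all genes, with a median log2 difference of 0.07. The largest increases were those of Sparcl1 (log2 difference 3.20), Vsnl1, a neuronal calcium sensor, at 6.57-fold (limma adjusted p = 2.39e-07), Kcnip3 at 3.38-fold (limma adjusted p = 2.21e-07) and the matrix protein gene Sparc at 2.36-fold (limma adjusted p = 0.000467). The lower genes, named here after their values were seen, were Necab3, Kcnip4 and Ncs1, which fell by 0.58, by 0.42 and by 0.39 on the log2 scale (limma adjusted p = 0.0164, 0.0401 and 0.0449). Members of the same families stood on opposite sides, as Kcnip1 and Kcnip3, which encode subunits of potassium channels, and Necab1 and Necab2 were higher. Leaving out 1 array took the count of lower genes from 3 to between 0 and 3, and it was 0 without pool 2 of the Sox2-positive or pool 4 of the Sox2-negative arrays. Necab1 no longer passed on leaving out pool 2 or 3 of the Sox2-positive arrays, or pool 1 of the Sox2-negative ones (0.0508 to 0.054). Necab3 no longer passed on leaving out pool 2 of the Sox2-positive arrays, or pool 1 or 4 of the Sox2-negative ones (0.0541 to 0.0611). Kcnip4 no longer passed on leaving out any array but Sox2-negative pool 2 (0.054 to 0.129). Ncs1 no longer passed on leaving out any array but Sox2-negative pool 1, nor with array weights (0.0822 to 0.118).

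**Figure D4:**
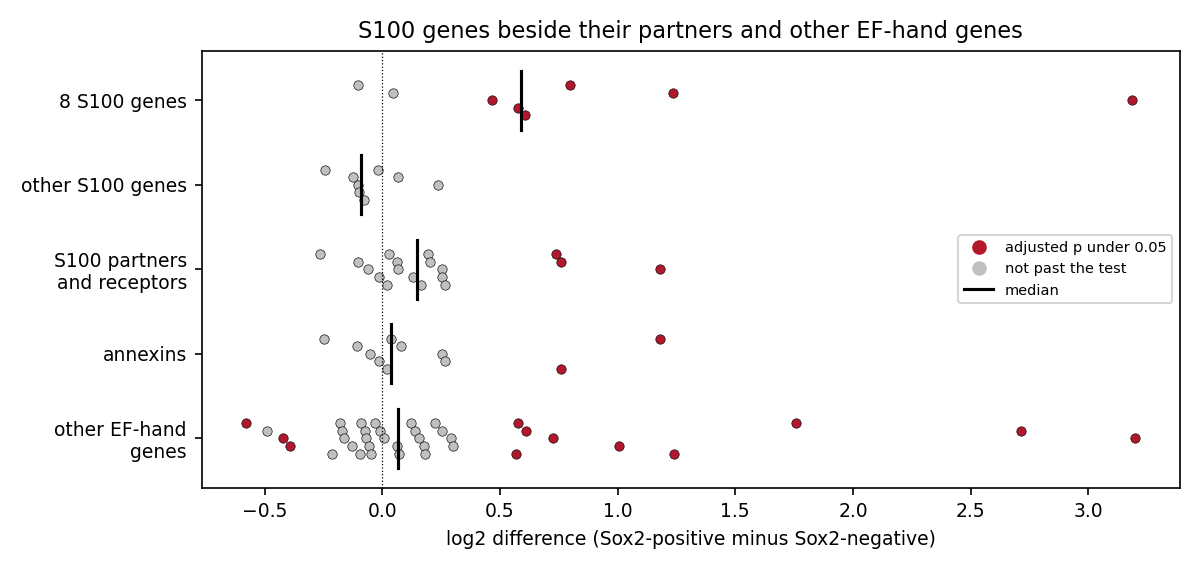
Log2 differences (Sox2-positive minus Sox2-negative) of the 8 S100 genes, 8 of the 10 other S100 genes, and the lists of S100 partners and receptors, annexins and other EF-hand genes, 1 point per gene, with red for an adjusted p under 0.05 and a black line at the median. The medians are 0.59, -0.09, 0.15, 0.04 and 0.07, and lower genes past the test are found among the other EF-hand genes.

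The genes whose profile over the 8 arrays was most like that of the S100 genes with at least a 2-fold increase were named by the root mean square distance between centred log2 profiles. For S100a1 they were Cacng4 (0.175 log2 units), a regulatory subunit of glutamate receptors, Plekhb1 (0.184) and Gatm (0.195), an enzyme of creatine synthesis. For S100b they were Gabbr2 (0.122), a subunit of the GABA-B receptor, Acss1 (0.131), an acetate-using enzyme, and Cav1 (0.135), the main protein of caveolae. The log2 difference of Acss1 was 1.24, or 0.57 when its probe sets were averaged. That these 6 genes are also higher in Sox2-positive cells follows from how they were picked.

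Markers of several cell types, among them types known to make S100 proteins, were read beside these results. Over all genes 5.96% were higher and 2.52% lower in Sox2-positive cells. Sox2 was higher in the Sox2-positive fraction, at 5.94 ± 0.34 against 4.30 ± 0.29 (SD, n = 4 each; limma adjusted p = 2.53e-05). Its Sox2-negative mean lay under the median of the receptor genes (4.95), so no fold is given for Sox2. That of S100a6 (4.88) did too, so the fold given for S100a6 is no firmer. Of 9 oligodendrocyte progenitor markers 9 were higher, and their mean level ran from 8.99 to 9.65 over the Sox2-positive and from 6.16 to 6.18 over the Sox2-negative arrays. Of 14 astrocyte markers 9 were higher and 0 lower, with mean levels of 6.93 to 7.54 and 6.26 to 6.30. Of 9 mature oligodendrocyte markers 4 were higher and 0 lower, with mean levels of 6.13 to 7.17 and 5.68 to 5.87. Of 10 granule neuron lineage markers, genes of the lineage from which these tumours arise, 9 were lower and 0 higher, and their mean level was still 7.48 to 7.80 in Sox2-positive and 8.36 to 8.63 in Sox2-negative arrays.

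Within the Sox2-positive fraction the pools were ordered differently for these lists. The oligodendrocyte progenitor mean was 8.99, 9.65, 9.36 and 9.23 in pools 1 to 4, the same order of pools as S100a1. The astrocyte mean was 7.07, 7.11, 7.54 and 6.93, the same order of pools as S100b. S100a10, S100a16, S100a13 and S100a6 followed neither order, and the mature oligodendrocyte mean (6.13, 7.17, 6.34 and 6.58) matched neither S100a1 nor S100b. In the Sox2-negative fraction the order of the oligodendrocyte progenitor mean differed from that of S100a1. The order of the astrocyte mean differed there from that of S100b. All of these are single orders of 4 pools and were not tested, and the part of either cell type in the S100 differences was not tested.

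Markers of further cell types, among them types known for S100a4, S100a6, S100a8 and S100a9, gave 1 call, where 8.47% of all genes were called. Of 14 microglia and macrophage markers 0 passed, with a mean level of 5.64 to 5.82 in Sox2-positive and 5.66 to 5.79 in Sox2-negative arrays. Of 8 neutrophil markers 0 passed, with mean levels between 4.91 and 5.11 over all arrays, and in all 8 both group means were under the upper quartile of the receptor genes. Of 8 endothelial markers 0 passed, as did 0 of 7 ependymal markers and 0 of 3 red blood cell markers. Both group means lay under that quartile in 6 of the endothelial, 6 of the ependymal and 3 of the red blood cell markers. This also held for 7 of the 14 microglia and macrophage markers and 3 of the 10 pericyte and fibroblast markers. The lack of calls for such dim markers is less sure. Of 10 pericyte and fibroblast markers 1, Rgs5, was higher (log2 difference 0.37, limma adjusted p = 0.0174), with mean levels of 5.76 to 5.95 and 5.83 to 5.96.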

How the data were processed

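RNA of sorted cells was hybridized to Affymetrix arrays, 1 per pool of 3 tumours. The authors deposited log2 values, 1 per probe set and array, which per the submitters' processing notes came from RMA in Affymetrix Expression Console 1.2.0.20; that they are log2 was inferred from their range (2.51 to 13.6). RMA compresses differences of dim genes and removes differences in total RNA. The genome build is not given in the sources used here. Of 41345 probe sets, 23521 had 1 gene symbol in the platform annotation, and the one with the highest mean was taken per gene, which left 22180 genes. Coordinates printed are those of the RefSeq promoter table.

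Group means were compared by limma (version 3.58.1, under R 4.3.3; default lmFit and eBayes with no covariate), two-sided, with Benjamini-Hochberg adjustment over all 22180 genes and a threshold of 0.05. Folds give the Sox2-positive level relative to the Sox2-negative one. Pairs of genes were compared with exact permutation tests in SciPy 1.17.1; their intervals come from the spread of 4 arrays per group. The p-values measure the spread between pools, and the number of arrays limits the precision. In 10 simulations, 200 of 22180 genes were changed and the noise was independent between genes. The test then recovered 56.4% of changes of 0.5 log2 units and 95.7% of changes of 1. In the data 1879 genes were called, far more than the 200 changed, so these rates need not hold for the data.

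Pools carry the numbers 1 to 4 in each fraction. Deviations from the group means correlated at 0.114 to 0.241 between arrays of the same number, and at -0.284 to 0.161 between different numbers. All values for the same number were positive, while those for different numbers took both signs. With the numbers as a block 2340 genes were called, against 1879 without. The ranges overlap in part, so whether the numbers pair the arrays was not settled, and the labels do not state such a pairing. The main tests did not use the numbers, and they entered as a block in an alternative. Array medians lay between 5.83 and 5.88, and correlations between arrays were 0.973 to 0.987 within and 0.942 to 0.968 between the fractions.

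The S100 genes, lists and rules for naming were chosen with earlier results of these data known. Named were all S100 genes, Sox2, up to 4 largest called genes of each list, the 3 genes most like each S100 gene with at least a 2-fold increase, and called neighbours in the RefSeq order. S100a2 and S100a7l2 were not on the list of other S100 genes and were added as measured. Alternatives were quantile normalization, median centring, the pool number as a block, array weights, a variance trend, the mean of probe sets, dimmer genes left out and each array left out in turn.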

Additional observations from a re-analysis of the deposited data

Results flagged for a closer look

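In 1 of 38 sets of 4 arrays examined (19 genes, the 18 S100 genes and Sox2, in each fraction), a single array lay far from the others. S100a3 was at 5.21 in Sox2-positive pool 4 and at 5.49 to 5.50 in the other 3 Sox2-positive pools. The gap to the nearest array, divided by the range, was 0.948, above Dixon's critical value of 0.829 for 4 samples. Chance flags about 1 in 20 such sets. S100a3 did not pass the test between the fractions with all arrays or with any 1 left out (limma adjusted p = 0.27 with all arrays and 0.116 to 0.484 over the alternatives).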

How the results depend on the processing

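S100a1, S100b, S100a10, S100a16 and S100a13 stayed past the test in 15 of 15 alternatives, and S100a4 and S100a11 in 0 of 15. With the replicate block the log2 differences were the same, S100a1 at 3.19, and the block changed no call of the 8 genes (6 higher). S100a6 passed in 9 of 15, and ran from 0.36 to 0.55 on the log2 scale when 1 array was left out. The count of S100 genes called was 5 or 6. The count of annexins called was 1 with quantile normalization, with median centring and with array weights, and 1 to 2 when 1 array was left out. The count of other EF-hand genes called was 8 to 12 when 1 array was left out and 13 with the replicate block. In the comparison of pairs of S100 genes, 18 of 28 passed, and with the replicate block 0 did, because 16 sign changes allow no p under 0.125. S100a2, S100a5, S100a8 and S100g were too dim to be tested when dimmer genes were left out. The dim level of most S100 genes in Sox2-negative cells may limit the size of the folds.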
